A study of Mus musculus with 2 samples.

Results

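The genes of the extracellular matrix and of the integrins, its main cell-surface receptors, were compared between chromogranin A reporter cells and the other epithelial cells of mouse small-intestinal organoids. They were selected by gene symbol alone: 129 of the 23532 symbols with an estimate in both libraries begin with a collagen, laminin, integrin, fibulin, fibrillin, thrombospondin, nidogen, lysyl oxidase or latent TGF-beta binding protein prefix or name another matrix protein such as fibronectin, osteopontin or decorin. Of these, 96 encode matrix proteins or their crosslinking enzymes, 27 are integrin chains, and 6 only share a prefix (*Col4a3bp*, *Itgb1bp1*, *Itgb1bp2*, *Itgb3bp*, *Itgbl1* and *Loxhd1*).

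The organoids were grown from crypts of ChgA-GFP reporter mice, whose cells light up with green fluorescent protein (GFP) where the chromogranin A gene is used, as it is in serotonin-producing enterochromaffin cells. They were kept in Matrigel, a basement membrane extract that surrounds the cultures with matrix protein from outside, in medium with epidermal growth factor, noggin and R-spondin. Dissociated cells were sorted by fluorescence into a GFP+ fraction, about 1% of the epithelial cells, and a GFP- fraction, which holds all the remaining cells. There was 1 library per fraction, both of the same strain, with no age, sex or treatment given in the labels used here. Levels are in FPKM, fragments per kilobase of transcript relative to library size, a unit per length that allows genes to be compared. A pair of levels gives the GFP- library first and the GFP+ library next, and a number in brackets after it is their log2 difference. With 1 library per fraction there is no replicate check and no p-value, so differences describe these 2 libraries. In such bulk samples, fewer cells of a type and less RNA per cell cannot be told apart.

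Integrins are pairs of one alpha and one beta chain that hold a cell to its matrix and signal from it. In the gut the epithelium stands on a basement membrane of laminins, type IV collagen, nidogen and heparan sulfate proteoglycans, bound mainly by beta 1 integrins and by the alpha 6 beta 4 integrin of hemidesmosomes. Fibrillar collagens, small proteoglycans and elastic fibre proteins are the usual products of the fibroblasts and smooth muscle below it, which crypt organoids are not meant to contain.

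The fractions separated as their labels say. Enteroendocrine markers passed 4-fold toward GFP+ in 10 of 10 estimated cases, led by *Tph1* (17.5 and 1359 FPKM) and *Pcsk1* (11.3 and 930 FPKM). Paneth cell markers did so toward GFP- in 8 of 8, led by *Defa24* (6762 and 400 FPKM) and *Lyz1* (4819 and 289 FPKM). *Chga* itself was at 133 FPKM in GFP- and had no estimate in GFP+, where its row has the status HIDATA. Differences are given as log2((FPKM + 1) in GFP+ / (FPKM + 1) in GFP-), for genes that reach 1 FPKM in either library, with 2 (4-fold) as the size rule. The added 1 understates the difference of genes with low values. The median log2 ratio of symbols at 10 FPKM or more in each library was -0.50, so directions were also checked with that median set to 0 and with both libraries rescaled to one total.

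Of the 129 genes, 39 reached 1 FPKM in at least 1 library, and in 5 of these 39 the GFP+ level was 4-fold higher or more and in 1 it was 4-fold lower or more. The higher genes were *Fbln2*, *Spp1*, *Itga4*, *Itga9* and *Lama5*, and the lower one was *Fbln1*. Over all 11868 symbols of at least 1 FPKM, 7.09% were at least 4-fold higher and 4.59% at least 4-fold lower, beside 12.8% and 2.56% of the 39. With the median ratio set to 0 the counts were 7 higher and 0 lower of 45 genes, and the shares over all symbols 10.8% and 1.51%. With one total they were 7 higher and 0 lower of 47, beside 11.8% and 1.09%. The median difference of the 39 was 0.62, beside -0.12 over all symbols tested. That median rests on the filter, because 16 of the 39 entered it through their GFP+ level alone, which fixes their sign. Over the 19 genes that reach 1 FPKM in each library it was -0.57, beside -0.24 over all such symbols. In those 19 genes 1 was at least 4-fold higher and 1 lower, where 4.27% and 5.12% of all such symbols were. The counts also moved with the pseudocount: at 0.1 they were 15 higher and 1 lower of 39, beside 12.8% and 6.82% of all symbols, and at 5 they were 1 and 0, beside 2.97% and 2.65%. With a minimum of 5 FPKM in the higher library they were 3 and 1 of 15, beside 8.16% and 5.82%.

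**Figure D1:**
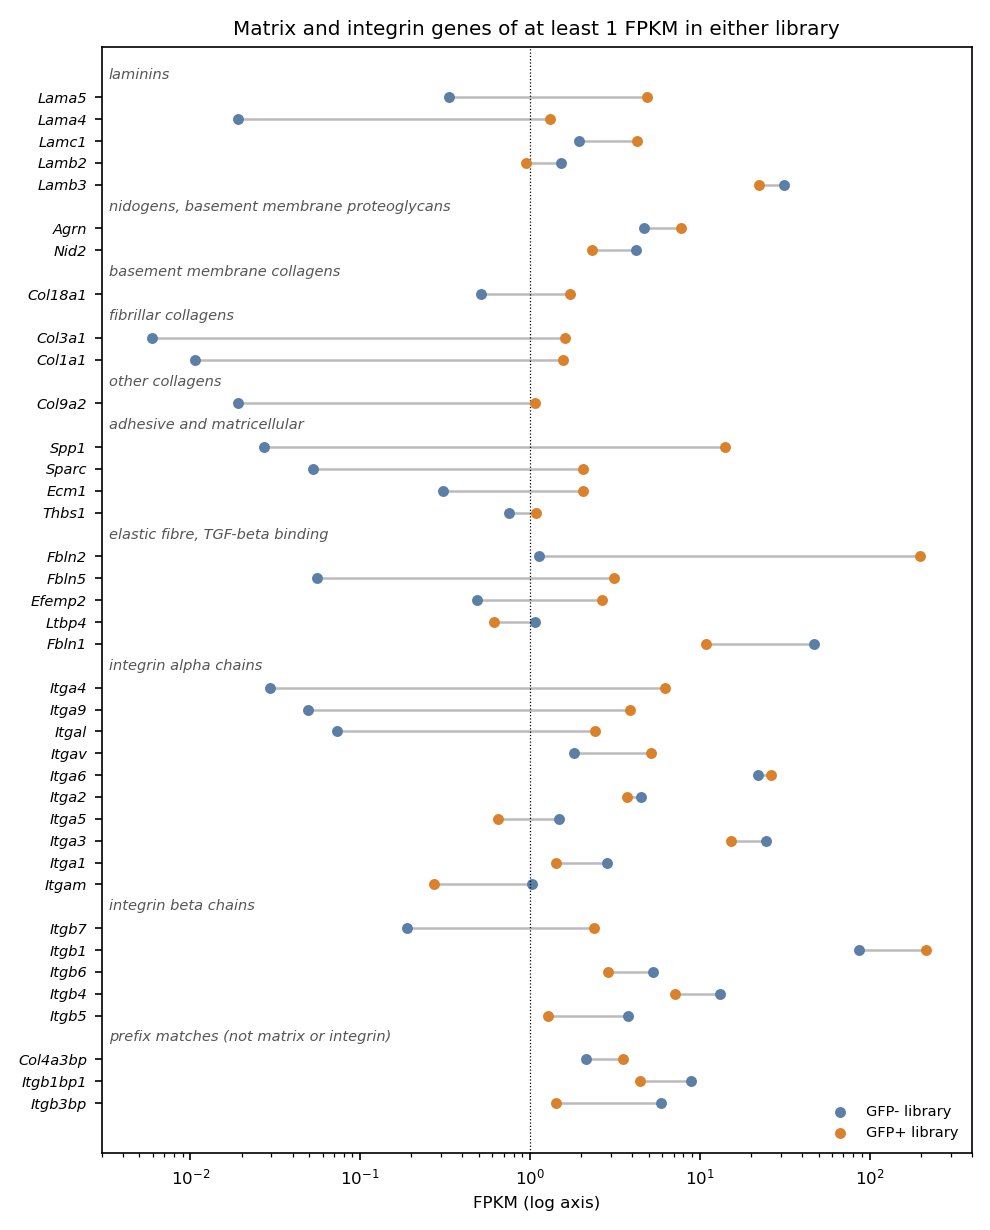
FPKM of 38 of the 39 matrix, integrin and prefix-matched genes that reach 1 FPKM, by role, on a log axis; blue points are the GFP- library, orange points the GFP+ library, and the dotted line marks 1 FPKM. *Fbln2* spans 1.14 to 196 FPKM, while *Lamb3*, *Itga6* and *Itga2* lie close together in both libraries.

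The elastic fibre group held both extremes. *Fbln2* encodes fibulin-2, a secreted glycoprotein that links basement membrane and elastic fibre components (chromosome 6, 91212764 to 91272540, mm10, plus strand, protein-coding; positions are the loci listed in the files). It was at 1.14 and 196 FPKM, with deposited upper bounds of 3.42 and 453 FPKM. Its level was thus the 297th highest of all symbols in GFP+ and the 10417th in GFP-. The log2 difference was 6.53, a ratio of 173, and *Fbln2* was the single one of the 129 genes to pass the size rule under every pseudocount and scaling tried. Its relative *Fbln1*, also a basement membrane and elastic fibre glycoprotein (chromosome 15, 85206008 to 85286294), stood the other way round, at 46.8 and 10.8 FPKM. Its upper bounds were 101 and 25.3 FPKM and its log2 difference was -2.02. *Fbln1* lay at the edge of the rule and missed it with the median ratio set to 0 (-1.55), with one total (-1.44) and with a pseudocount of 5 (-1.71), each time below 0.

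*Fbln5*, required for elastic fibre assembly, lay just outside the rule. It was at 0.0558 and 3.13 FPKM (log2 difference 1.97), with upper bounds of 0.163 and 7.13 FPKM. Either other scaling put it past the rule, at 2.36 and 2.46. *Efemp2* (fibulin-4), which takes part in elastin crosslinking, was at 0.488 and 2.66 FPKM (1.30). Its exons overlap those of *Mus81* on the other strand, which was at 23.9 and 9.20 FPKM, and whether the counting used strand is not given in the sources used here. *Ltbp4*, a latent TGF-beta binding protein, was at 1.07 and 0.614 FPKM (-0.36). The other 10 genes of the group stayed below 1 FPKM, among them the fibrillins *Fbn1* (listed at 0 and at 0.0391 FPKM) and *Fbn2* (listed at 0 in both). *Fbln1* and *Fbln2*, of one family, were thus the highest of the group, the former in the GFP- library and the latter in the GFP+ library.

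Among the adhesive and matricellular glycoproteins, 4 of 12 reached 1 FPKM, each of them below 1 FPKM in GFP-. *Spp1* encodes osteopontin, a secreted phosphoprotein that is a ligand of several integrins (chromosome 5, 104435111 to 104441053). It was at 0.0273 and 14.1 FPKM, with upper bounds of 0.111 and 32.2 FPKM and a log2 difference of 3.87. By the fragment scale set out with the collagens below, these values stood for about 2 and 1267 fragments. With a pseudocount of 5 the difference was 1.92. *Sparc*, a collagen-binding matricellular protein, was at 0.0530 and 2.04 FPKM (1.53, upper bounds 0.165 and 5.09 FPKM). *Ecm1*, a secreted matrix glycoprotein, was at 0.309 and 2.05 FPKM (1.22, upper bounds 0.882 and 5.29 FPKM). *Thbs1*, thrombospondin 1, was close in both at 0.755 and 1.08 FPKM (0.24). Fibronectin (*Fn1*) was below 1 FPKM in both, at 0.00866 and 0.635 FPKM. Tenascin C (*Tnc*) and vitronectin (*Vtn*) did not exceed 0.0138 FPKM in either library.

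The laminins are trimers of an alpha, a beta and a gamma chain, and 6 of the 11 chains reached 1 FPKM. *Lamb3*, the beta 3 chain, was the highest, at 31.3 and 22.2 FPKM, with upper bounds of 67.2 and 47.7 FPKM. Its log2 difference of -0.48 turned to 0.004 with the median ratio set to 0 and to 0.12 with one total. *Lama3*, the alpha 3 chain, was at 0.00780 and 0.0717 FPKM, about 5 and 45 fragments. *Lama5* encodes the alpha 5 chain of the main adult epithelial laminins (chromosome 2, 180176373 to 180225859, minus strand). It was at 0.333 and 4.89 FPKM, with upper bounds of 0.958 and 10.6 FPKM. The ratio was 14.7 and the log2 difference 2.14. It lay just inside the rule and missed it with a pseudocount of 5 (0.89). *Lamc1*, the gamma 1 chain of most laminins, was at 1.95 and 4.24 FPKM (0.83, upper bounds 4.53 and 9.87 FPKM). *Lama4*, best known from blood vessels, was at 0.0190 and 1.31 FPKM (1.18), and *Lamb2*, the beta 2 chain, at 1.52 and 0.947 FPKM (-0.37). *Lamb1* stayed just under the minimum at 0.841 and 0.302 FPKM, and *Lama1* was listed at 0 in both.

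Of the other basement membrane components, agrin (*Agrn*), a heparan sulfate proteoglycan, was at 4.68 and 7.76 FPKM (0.62, upper bounds 11.0 and 18.5 FPKM). *Nid2*, a nidogen that bridges laminin and type IV collagen, was at 4.23 and 2.30 FPKM (-0.66, upper bounds 15.9 and 7.34 FPKM). Its listed locus was shared with *2700060E02Rik*, at 76.2 and 20.2 FPKM. The other nidogen, *Nid1*, was at 0.0272 FPKM in GFP- and listed at 0 in GFP+. Perlecan (*Hspg2*) was at 0.518 and 0.410 FPKM (-0.11, upper bounds 1.26 and 1.23 FPKM) and turned above 0 under both other scalings, at 0.06 and 0.10. *Col18a1*, a basement membrane collagen that carries heparan sulfate chains, was the highest collagen in the GFP+ library, at 0.513 and 1.71 FPKM (0.84, upper bounds 1.45 and 4.11 FPKM).

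The collagens were low in both libraries, but mostly at different levels. Only 4 of 44 chains reached 1 FPKM, all of them in GFP+ alone: *Col18a1*, *Col3a1*, *Col1a1* and *Col9a2*. The 11 fibrillar chains summed to 0.119 and 5.44 FPKM, the 9 basement membrane chains to 0.608 and 3.41 FPKM and the other 24 to 1.68 and 5.31 FPKM. To read such values, FPKM was turned into approximate fragments with the low steps of the data, in which 1 fragment was worth 1 part in 59.0 of an FPKM and kilobase in GFP- and 1 part in 59.8 in GFP+. These figures use the longest annotated coding transcript and are rounded. They speak of counting alone, since copies made in amplification cannot be told from separate molecules here.

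On this scale *Col1a1* and *Col3a1*, fibrillar collagens of types I and III, had about 4 and 2 fragments in GFP- against 554 and 535 in GFP+. In FPKM they were at 0.0106 and 1.56 (log2 difference 1.34) and at 0.00593 and 1.61 (1.37), with upper bounds of 4.67 and 3.86 FPKM in GFP+ and of 0.0362 and 0.0205 FPKM in GFP-. *Col1a2*, the partner chain of *Col1a1* in type I collagen, had about 1 fragment in GFP- and 284 in GFP+ and stayed just under the minimum at 0.889 FPKM (0.91, upper bounds 0.0123 and 2.62 FPKM). *Col9a2*, a chain of a collagen that decorates fibrils, had about 3 and 187 fragments (0.0190 and 1.07 FPKM, difference 1.02, upper bounds 0.0648 and 2.92 FPKM). In all, 30 of the 44 chains had fewer than 4.5 fragments in GFP-, 13 of them listed at 0. Of these 30, 17 (56.7%) had at least 10 fragments in GFP+ and 7 (23.3%) at least 100. Of the 6481 symbols with a coding transcript chosen the same way, 14.8% and 2.38% did. Fragments grow with transcript length, and these shares were not matched for it. In reverse, 11 chains had fewer than 4.5 fragments in GFP+, and 1 of them (9.09%) had at least 10 in GFP-. Of the 5369 symbols with a coding transcript chosen that way, 3.39% did. The 1 chain was *Col17a1*, the hemidesmosomal collagen, with about 24 fragments in GFP- and listed at 0 in GFP+. *Col9a1*, at 0.872 and 0.0555 FPKM (about 197 and 13 fragments), was the one collagen with more than 100 fragments in GFP- and a lower value in GFP+ (-0.83, upper bounds 2.45 and 0.170 FPKM). *Col26a1* was at 0.355 and 0.767 FPKM (0.38, upper bounds 0.983 and 2.09 FPKM). With a pseudocount of 0.1 in place of 1, *Col1a1*, *Col3a1* and *Col9a2* passed the size rule as higher, at 3.91, 4.01 and 3.30.

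**Figure D2:**
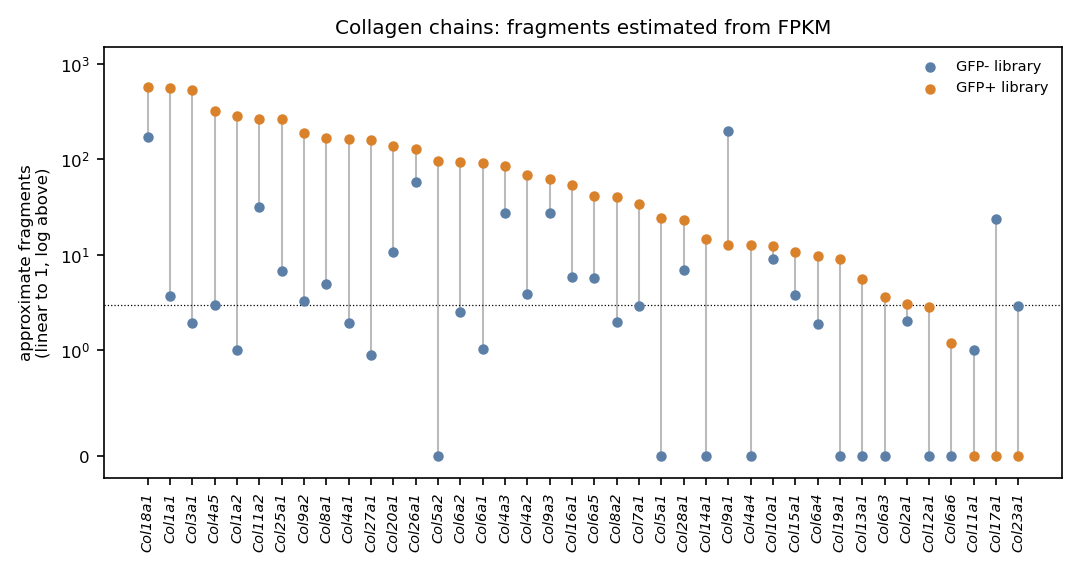
Approximate fragments of the collagen chains detected in either library, in the order of their GFP+ value; blue points are the GFP- library, orange points the GFP+ library, and the dotted line marks 3 fragments. The axis is linear from 0 to 1 and logarithmic above. *Col1a1* and *Col3a1* stand at about 4 and 2 fragments in GFP- and 554 and 535 in GFP+, and *Col9a1* and *Col17a1* lie the other way round.

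Neighbouring collagen genes were not always alike. *Col4a1* and *Col4a2*, whose listed loci lie 2 bases apart on opposite strands of chromosome 8, encode the chains of the commonest type IV collagen. In the GENCODE M21 annotation their exons overlap, so reads in the shared stretch cannot be told apart without strand. *Col4a1* and *Col4a2* had about 2 and 4 fragments in GFP- and 162 and 69 in GFP+. *Col4a1* was at 0.00495 and 0.411 FPKM (0.49, upper bounds 0.0171 and 1.13 FPKM). On the X chromosome *Col4a5* had about 3 fragments in GFP- and 324 in GFP+ (0.828 FPKM, under the minimum, difference 0.86, upper bounds 0.0271 and 2.08 FPKM), whereas its neighbour *Col4a6* was listed at 0 in both. *Col6a1* and *Col6a2*, neighbours on chromosome 10, had about 1 and 2 fragments in GFP- and 92 and 95 in GFP+.

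Of the 5 interstitial proteoglycans 4 had the higher value in GFP+ and 1 in GFP-. Of the 5 lysyl oxidases 4 had the higher value in GFP+, and *Loxl4* was at 0.00912 FPKM in both. None of the 5 interstitial proteoglycans reached 1 FPKM. Biglycan (*Bgn*), decorin (*Dcn*) and lumican (*Lum*), small leucine-rich proteoglycans that bind collagen fibrils, were listed at 0 in GFP- but at 0.666, 0.401 and 0.0869 FPKM in the other library. Their GFP+ upper bounds were 1.80, 1.13 and 0.265 FPKM. For *Bgn* and *Dcn* 3 fragments in GFP- would be 0.0210 and 0.0289 FPKM. Versican (*Vcan*), a large proteoglycan, was at 0.00959 and 0.419 FPKM (0.49, upper bounds 0.0370 and 1.11 FPKM), and fibromodulin (*Fmod*) at 0.0546 and 0.00606 FPKM. No lysyl oxidase, the enzymes that crosslink collagen and elastin, exceeded the 0.179 FPKM of *Lox* in GFP+ (0.00373 FPKM in GFP-). *Loxl3* was at 0.0171 and 0.0853 FPKM, and *Loxl1* was listed at 0 in GFP- and at 0.0563 FPKM in GFP+. Of all 129 genes, 79 were below 1 FPKM in both libraries and above 0 in at least 1 of them, and 67 of these 79 (84.8%) had the higher value in GFP+. Of all symbols chosen that way 66.9% did.

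**Figure D3:**
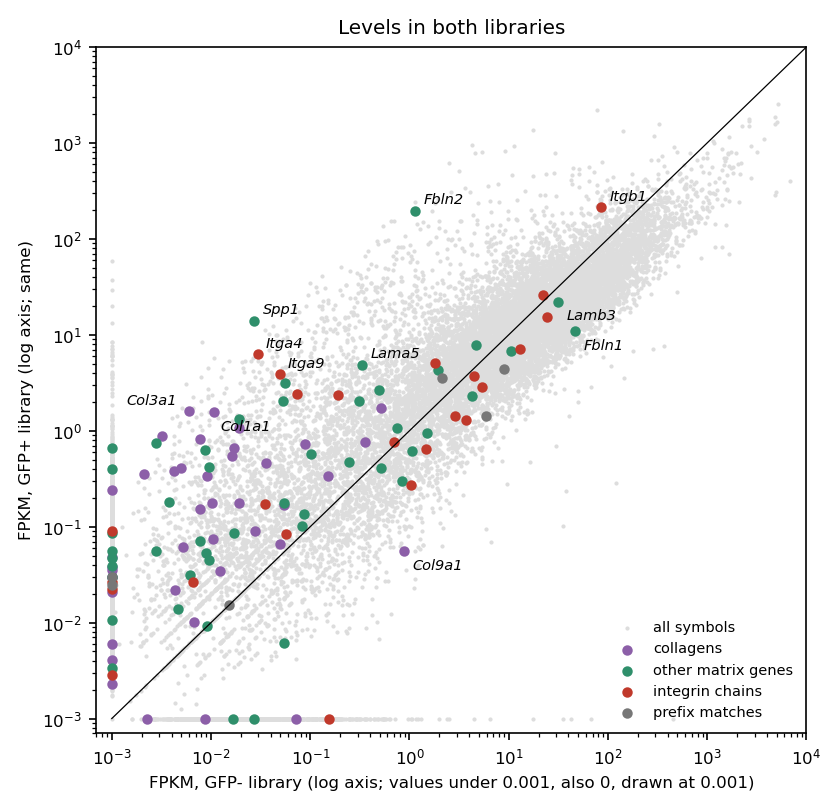
FPKM in the GFP+ library against the GFP- library on log axes, for all symbols (grey) and for the matrix and integrin genes by class; values under 0.001, also 0, are drawn at 0.001, and the line marks equal levels. Collagens (purple) gather at the lower left above the line, and *Itgb1* and *Lamb3* lie at high levels near it.

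Levels of the markers of other cells stood beside these values as follows. Of 12 mesenchymal markers 10 were below 1 FPKM in both libraries. The list summed to 6.86 and 241 FPKM, of which *Vim* (vimentin) made 4.90 and 237 FPKM, and without *Vim* to 1.96 and 3.82 FPKM, mostly *Tagln* at 1.71 and 3.13 FPKM. *Pdgfra*, in a row joined with a microRNA, was at 0.00250 and 0.0175 FPKM, *Pdgfrb* at 0.186 and 0.125 FPKM, *Acta2* at 0.0273 and 0.300 FPKM, and *Twist2* was listed at 0 in both. *Thy1*, *Pdpn*, *Myh11* and *Cspg4* were listed at 0 in GFP- and did not exceed 0.0670 FPKM in GFP+. Of 8 endothelial markers 7 were below 1 FPKM in both. Their sum was 0.499 FPKM in GFP- and 11.0 FPKM in GFP+, of which *Pecam1* made 0.187 and 10.4 FPKM, with *Vwf* next at 0.198 and 0.475 FPKM and *Kdr* and *Tek* listed at 0 in GFP+. Of 9 immune markers 6 were below 1 FPKM in both. They summed to 14.0 and 4.88 FPKM, with *Cd14* at 12.4 and 1.66 FPKM and *Cd68* at 0.595 and 2.71 FPKM. *Ptprc* was at 0.0224 FPKM in both libraries, *Cd3g* was listed at 0 in both, and *Cd3e* was listed at 0 in GFP+. Of 9 glial and neuronal markers 8 were higher in GFP+, with sums of 2.40 and 15.1 FPKM, of which *Ret* made 0.269 and 6.75 FPKM and *Tubb3* 1.51 and 4.58 FPKM. The epithelial markers were led by *Krt8* at 2742 and 922 FPKM and *Krt19* at 2659 and 1680 FPKM, and the stem cell markers by *Olfm4* at 892 and 217 FPKM and *Smoc2* at 362 and 96.5 FPKM. The part of mesenchymal, endothelial, immune or glial cells in the matrix values was not tested.

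The integrin chains summed to 168 and 294 FPKM, and 15 of 27 reached 1 FPKM. *Itgb1*, the beta 1 chain shared by most matrix receptors (chromosome 8, 128685654 to 128733579), was the highest of all 129 genes in both libraries, at 86.0 and 214 FPKM. Its upper bounds were 202 and 489 FPKM, its ratio was 2.48 and its log2 difference 1.30, below the size rule under every setting (1.80 with the median ratio set to 0, 1.92 with one total). The 12 alpha chains known to pair with beta 1 summed to 57.8 and 63.3 FPKM. *Itgb1* and its alpha partners thus summed to more similar levels in GFP- than in GFP+.

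*Itga6* and *Itga3*, which bind laminins, were the highest alpha chains in both libraries. *Itga6* (alpha 6, which pairs with beta 1 or beta 4) was at 21.9 and 26.2 FPKM (0.25, upper bounds 49.6 and 62.8 FPKM). *Itga3* (alpha 3) was at 24.5 and 15.2 FPKM (-0.65, upper bounds 52.5 and 32.8 FPKM). *Itgb4*, the hemidesmosomal beta 4 chain, was at 13.1 and 7.16 FPKM (-0.79, upper bounds 53.9 and 20.1 FPKM). Its listed locus is shared with that of *Galk1*, at 335 and 49.7 FPKM. The order of *Itga3* and *Itga6* was opposite in the libraries, but their bounds overlapped in each.

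The collagen-binding chains *Itga2* and *Itga1*, neighbours on chromosome 13, were at 4.49 and 3.70 FPKM (-0.23, upper bounds 10.3 and 8.54 FPKM) and at 2.85 and 1.42 FPKM (-0.67). The former turned above 0 under both other scalings, at 0.18 and 0.28. The listed locus of *Itga1* is shared with *Pelo*, at 8.14 and 3.72 FPKM. *Itga5*, the alpha chain of the main fibronectin receptor, was at 1.48 and 0.647 FPKM (-0.59). *Itgav*, the alpha V chain, was at 1.80 and 5.12 FPKM (1.13), while its beta partners *Itgb5* and *Itgb6* were at 3.75 and 1.28 FPKM (-1.06) and at 5.32 and 2.88 FPKM (-0.70, upper bounds 12.6 and 6.71 FPKM). So alpha V was higher in GFP+ and both of these beta chains were lower, also under either other scaling.

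The alpha chains past the size rule were *Itga4* and *Itga9*. *Itga4*, alpha 4, which pairs with beta 1 or beta 7 (chromosome 2, 79255426 to 79428988), was at 0.0296 and 6.25 FPKM, about 17 and 3648 fragments, with upper bounds of 0.0939 and 14.7 FPKM and a log2 difference of 2.82. Its listed locus is shared with *Cerkl*, which was at 0.0633 and 6.495 FPKM, and its exons overlap those of *Cerkl* on the other strand. Reads in the shared stretch cannot be told apart without strand, and the extent of the overlap was not measured. *Itga9*, alpha 9, a beta 1 partner that binds osteopontin and tenascin C (chromosome 9, 118606709 to 118901003), was at 0.0490 and 3.87 FPKM, about 20 and 1625 fragments. Its upper bounds were 0.143 and 9.12 FPKM and its log2 difference 2.21, just inside the rule. With a pseudocount of 5 the differences of *Itga4* and *Itga9* were 1.16 and 0.81.

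*Itgb7*, the beta 7 chain and a partner of alpha 4, was at 0.189 and 2.38 FPKM (1.51, upper bounds 0.543 and 6.94 FPKM). *Itgal*, alpha L of leukocytes, was at 0.0729 and 2.43 FPKM (1.68) and was past the rule at 2.05 and 2.14 under the other scalings. Its only known partner, *Itgb2*, was listed at 0 in GFP- and at 0.0908 FPKM in GFP+. *Itgam*, another leukocyte alpha chain with that partner, was at 1.03 and 0.270 FPKM (-0.67). *Itga7* stayed under the minimum at 0.703 and 0.757 FPKM. *Itgad*, a leukocyte alpha chain, was at 0.153 FPKM in GFP- (about 37 fragments) and listed at 0 in GFP+, and *Itgae*, alpha E of intraepithelial lymphocytes, was at 0.0574 and 0.0839 FPKM. *Itga8*, *Itga11* and *Itgax* were listed at 0 in both libraries, and *Itgb3* and *Itgb8* did not exceed 0.0222 FPKM.

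Of the prefix matches, *Col4a3bp* encodes the ceramide transfer protein and was at 2.13 and 3.54 FPKM (0.54). *Itgb1bp1*, whose product binds the tail of beta 1 and limits its activation, was at 8.90 and 4.45 FPKM (-0.86), in a merged locus with *Asap2* at 1.90 and 1.48 FPKM and with exons overlapping those of *Cpsf3*, at 82.1 and 31.8 FPKM. *Itgb3bp*, a centromere protein, was at 5.91 and 1.43 FPKM (-1.51), and its exons overlap those of *Pgm1*, at 125 and 43.3 FPKM. Their deposited upper bounds were 5.57 and 8.08, 25.4 and 12.9, and 13.7 and 4.04 FPKM in the same order.

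The immediate upstream sequences of members past the size rule are printed here, because the factors that define enteroendocrine cells include E-box-binding proteins such as *Neurod1*, itself at 6.51 and 247 FPKM. Each is the 250 bases before a RefSeq start (GRCm38.p6, the assembly of mm10) within 100 bases of the listed start, 5′ to 3′ on the gene's strand, with the E-boxes CAGCTG and CAGATG, searched on both strands, in capitals. They are Itga4 (chr2:79255176-79255425, plus strand), Lama5 (chr2:180225860-180226109, minus strand), Spp1 (chr5:104434861-104435110, plus strand) and Fbln1 (chr15:85205699-85205948, plus strand).
Itga4: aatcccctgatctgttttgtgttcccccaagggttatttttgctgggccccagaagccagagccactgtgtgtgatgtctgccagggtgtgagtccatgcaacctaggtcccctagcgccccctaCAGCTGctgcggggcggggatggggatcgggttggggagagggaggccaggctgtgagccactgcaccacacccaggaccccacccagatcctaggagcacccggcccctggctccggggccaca
Lama5: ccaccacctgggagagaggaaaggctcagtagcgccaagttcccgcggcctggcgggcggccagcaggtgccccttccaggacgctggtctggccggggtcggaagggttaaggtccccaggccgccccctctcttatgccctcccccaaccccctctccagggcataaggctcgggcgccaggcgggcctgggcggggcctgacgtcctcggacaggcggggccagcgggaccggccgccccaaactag
Spp1: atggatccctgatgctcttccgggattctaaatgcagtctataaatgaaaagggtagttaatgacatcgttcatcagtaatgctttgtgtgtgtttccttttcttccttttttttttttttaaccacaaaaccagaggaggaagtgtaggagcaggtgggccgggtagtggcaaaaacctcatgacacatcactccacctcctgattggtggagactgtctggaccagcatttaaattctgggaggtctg
Fbln1: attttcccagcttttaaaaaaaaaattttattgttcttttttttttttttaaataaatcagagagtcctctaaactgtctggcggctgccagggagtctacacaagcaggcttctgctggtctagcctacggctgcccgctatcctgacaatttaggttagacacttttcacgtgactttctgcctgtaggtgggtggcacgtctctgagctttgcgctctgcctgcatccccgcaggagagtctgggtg
Of the 4 windows, that of *Itga4* held 1 CAGCTG and 0 CAGATG, and those of *Lama5*, *Spp1* and *Fbln1* held 0 of either. Other E-box forms were not searched for, so a count of 0 does not mean that a window lacks E-boxes. Of 32851 RefSeq windows of the same length, 4271 held CAGCTG, 14.4% CAGATG and 25.5% at least 1 of them. The windows of *Fbln2*, which overlaps an annotated exon and held 0 CAGCTG and 1 CAGATG, and of *Itga9*, for which none was found, are not printed.

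Genes that serve the matrix and integrins without belonging to the 129 were described from 4 lists. Of 20 genes of integrin activation and focal adhesion of at least 1 FPKM, none was 4-fold higher or lower as deposited. Over all such symbols the shares were 7.09% and 4.59%. The median of the 20 was -0.06, beside -0.12 over all symbols. The widest differences were those of *Ptk2b*, a focal adhesion kinase relative, at 16.1 and 59.8 FPKM (1.83, and past the rule under both other scalings), *Zyx* (zyxin) at 53.9 and 26.5 FPKM (-1.00), *Tns3* (tensin 3) at 2.09 and 5.02 FPKM (0.96) and *Tln1* (talin 1), which activates integrins, at 9.45 and 18.8 FPKM (0.92).

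Of 8 hemidesmosome and tetraspanin genes, 2 were at least 4-fold higher and 1 lower, beside 7.09% and 4.59% of all symbols. The median was 0.54, beside -0.12 over all symbols tested. *Dst* (dystonin) and *Plec* (plectin), which tie hemidesmosomes to keratin filaments, were at 0.241 and 11.4 FPKM (3.33) and at 1.59 and 11.6 FPKM (2.28). *Tspan8*, a tetraspanin, was at 326 and 42.1 FPKM (-2.92), and *Cd9*, another, at 189 and 67.5 FPKM (-1.47). *Dst* and *Plec* were higher in GFP+, while *Itgb4*, at 13.1 and 7.16 FPKM, was not. Levels per gene do not show which transcript forms of *Dst* and *Plec* were read.

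Of 11 other matrix receptors, 1 was 4-fold higher and 0 lower, beside 7.09% and 4.59% of all symbols. The median was 0.84, beside -0.12 over all symbols tested, and with no minimum it was 0.09 over the 15 genes found. *Cd44*, a receptor for hyaluronan and osteopontin, was at 8.83 and 62.2 FPKM (2.69). The syndecans *Sdc1* and *Sdc4*, heparan sulfate receptors, were at 200 and 51.8 FPKM (-1.93) and at 253 and 97.1 FPKM (-1.38), and *Hmmr* was at 22.1 and 7.58 FPKM (-1.43). Of 10 genes of collagen folding and processing, 3 were 4-fold higher and 0 lower (5 and 0 under either other scaling). The shares over all symbols were 7.09% and 4.59% (10.8% and 11.8% higher under the other scalings). The median of the 10 was 1.39, beside -0.12 over all symbols tested. That median too rests on the filter, since 2 of the 10 entered through GFP+ alone and 0 through GFP- alone. With no minimum the median over the 19 genes found was 0.33. The 3 higher genes were *Plod2* and *Plod1*, lysyl hydroxylases, at 0.409 and 14.9 FPKM (3.49) and at 1.55 and 9.74 FPKM (2.07), and *Bmp1*, a procollagen proteinase, at 1.22 and 12.8 FPKM (2.64). *P4ha1*, a prolyl hydroxylase subunit, was at 7.38 and 30.7 FPKM (1.92). Below 0 were *Ppib*, a prolyl isomerase of collagen folding, at 364.7 and 137 FPKM (-1.41), *Crtap*, part of a prolyl hydroxylation complex, at 7.61 and 3.32 FPKM (-0.99), and *P4hb*, the other prolyl hydroxylase subunit, at 1155 and 1047 FPKM (-0.14). The collagen chaperone *Serpinh1* was listed at 0 in GFP- and at 0.464 FPKM in GFP+.

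**Figure D4:**
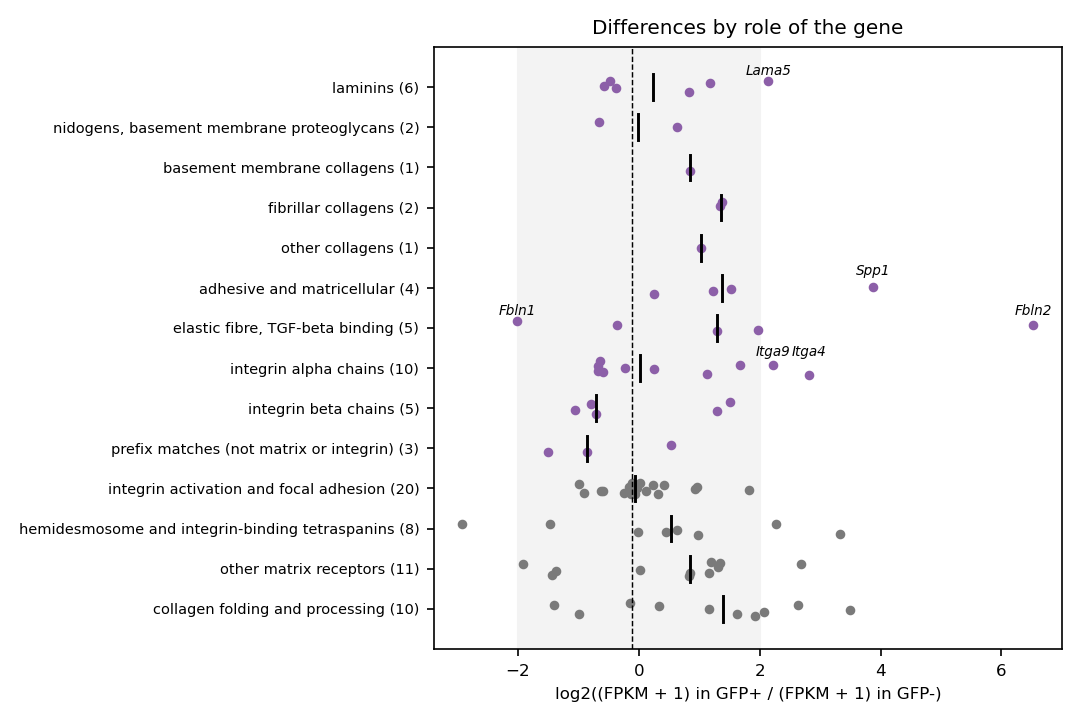
Difference between the libraries, log2((FPKM + 1) in GFP+ / (FPKM + 1) in GFP-), of each gene of at least 1 FPKM, by role (purple, matrix and integrin genes; grey, genes of the same processes outside them), with the number of genes in brackets; short bars are medians, the dashed line is the median of -0.12 over all symbols tested, and the shaded band is less than 4-fold. *Fbln2* at 6.53 lies apart from all others, and the focal adhesion genes all lie within the band.

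In summed level the 129 genes made up 0.0470% of all FPKM in the GFP- library (294 FPKM) and 0.149% in the GFP+ library (607 FPKM). *Itgb1* and *Fbln2* carried 29.2% and 0.385% of that sum in GFP- and 35.2% and 32.4% in GFP+. The other 127 genes together summed to 207 and 196 FPKM.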

How the data were processed

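Per the labels' protocols, polyadenylated RNA of the sorted cells went through SMARTer low-input amplification. The authors deposited FPKM per gene, each with bounds and a status, per the file headers. The build is mm10, and the submitters' processing notes name TopHat2 0.7, Cufflinks, Cuffdiff and FastQC. The annotation, scaling and strand setting were not given in the sources used here.

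Of 23793 rows, those with status HIDATA (5, all in GFP+) were treated as not estimated, rows with status FAIL kept their deposited value (no member has either), and FPKM was summed per symbol (Python 3.11.15, pandas 2.3.3). The 129 members come from 129 rows, 2 of them joined with a microRNA, all with status OK. All 129 pairs of bounds overlapped, since every lower bound was 0. No test was possible with 1 library per group. The comparison was tested on simulated data with known folds, set only in genes of at least 10 FPKM in GFP-. That test does not cover genes with low GFP- values, among them the members called higher. The members, lists, motifs and the rule for named genes were chosen with earlier results of these data known. That rule names every member of at least 1 FPKM, the 3 highest of each role, the 4 widest differences of each list and the 2 highest of each marker list. A member that the rule would name is not reported here.

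Depth is not stated in the files. In 827 single-transcript genes (GENCODE M21), 1 fragment was taken to be the low value that the largest number of genes had (40 and 18). Below 4.5 fragments, 75.2% of 109 values in GFP- and 59.0% of 83 in GFP+ lay within 0.1 of a whole number. Of the members between 0.5 and 4.5 fragments 19 of 31 and 4 of 11 did. The steps were thus less clear in GFP+, and the fragments given for that library are the less certain. The lengths of the members are only approximate. Of the 39 members of at least 1 FPKM, 10 share a listed locus or exons with another row.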

Additional observations from a re-analysis of the deposited data

How the results depend on the processing

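Of 39 members, 5 were at least 4-fold higher and 1 lower as deposited, beside 7.09% and 4.59% of all symbols. The median difference was 0.62, beside -0.12 over all symbols tested, and 16 of the 39 entered it through GFP+ alone. With a pseudocount of 0.1, 15 were higher (12.8% of all symbols), and with a pseudocount of 5, 1 was higher and 0 lower (2.97% and 2.65%). With the median ratio set to 0, 7 of 45 were higher and 0 lower (10.8% and 1.51% of all symbols). With one total, 7 of 47 were higher and 0 lower (11.8% and 1.09%). With a minimum of 5 FPKM, 3 of 15 were higher (8.16% of all symbols) and the median was -0.48. An alternative chosen after seeing the data took the 19 members of at least 1 FPKM in both libraries. Of these, 1 was higher (4.27% of all such symbols) and the median was -0.57, beside -0.24. Fewer genes were compared in both cases, and in the latter none that pass the minimum through 1 library alone. Using each row on its own, status OK alone, no minimum or no prefix matches left both counts as they were. None of these settings could have changed them. Each member has 1 row, all are OK, and no prefix match was called. A gene under 1 FPKM in both libraries cannot reach 4-fold with a pseudocount of 1. With no minimum the median over all 129 was 0.05. Of single members, 17 and 16 of 39 moved by over 1.5 times with a pseudocount of 0.1 or 5, and 2 changed sign under either scaling (*Lamb3* and *Itga2*). No paired analysis was possible because there is 1 library per fraction. Depth limits the GFP- values of most collagens, which rest on few fragments.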
